A study of Mus musculus with 4 samples.

Results

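The genes described here are the tumour suppressor p53 (Trp53), its 2 principal inhibitors Mdm2 and Mdm4, and 7 genes that p53 is known to activate: Trp53inp1, Cdkn1a, Ccng1, Zmat3, Phlda3, Sesn1 and Btg2. They are 10 of the 24421 genes in each of the 4 deposited tables of unique molecular identifiers (UMIs, counted transcripts), and were taken as a list. The question was how this pathway is set in myeloma cells of VQ mice compared with normal marrow plasma cells. Single cells had been sorted as CD138+ B220-, the surface profile of plasma cells, captured as droplets by the Bio-Rad ddSEQ system and sequenced from the 3′ end with the Illumina SureCell kit. The wild-type group was 1 library of C57/BL6 bone marrow (age-matched to the VQ animals per the series design). The VQ groups were 2 libraries of bone marrow and 1 library of lymph node. Their cells were donor-derived myeloma cells, named VQ-D2, taken from recipient animals. They carried the Vκ*MYC transgene, which expresses MYC under kappa light chain control in B-lineage cells, a mutant Nras allele (Nras LSL Q61R/+) behind a removable stop, and IgG1-Cre, which removes it in B cells switching to IgG1. All VQ groups therefore shared 1 named myeloma, both oncogenes and the transfer into recipients, and none of these can be told apart from one another here. The labels do not say whether any of the VQ libraries came from separate animals, so each p-value reflects no more than library-to-library spread, possibly technical in origin.

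Cells were chosen by the share of their UMIs from Jchain, the joining chain of secreted IgM and IgA. Wild-type cells with a share of at least 5% were kept as normal plasma cells, 106 of 163. VQ cells with a share under 5% were kept as myeloma cells: 226 of 245 in marrow replicate 1, 170 of 188 in marrow replicate 2 and 185 of 185 in the lymph node. No barcode was shared between libraries. Summed UMIs of the selected cells were 204002 (wild type), 1045005 and 444437 (marrow replicates) and 803752 (lymph node), with medians of 1999, 4700, 2646 and 3978 UMIs per cell. All 10 plasma cell markers examined were detected in wild type and marrow replicate 1, and 9 of 10 in the other VQ libraries, where Tnfrsf13b was at 0. The 10 markers summed to 44477, 12420, 5413 and 9441 UMIs in wild type, marrow replicates 1 and 2 and lymph node. Of these, Jchain itself held 41531, 5981, 2464 and 4021. The 10 markers made up more than 1% of UMIs in 106, 137, 110 and 125 of the selected cells. Jchain is among the 10, so the 5% rule fixed the wild-type count in advance and capped Jchain in VQ cells. These counts are therefore no independent check of cell identity. Myc was at 41.8 CPM (counts relative to the library total, scaled by the trimmed mean of M-values, TMM) in wild type and at 1190, 1390 and 1341 CPM in the VQ libraries. Of other cell types, the 8 neutrophil markers summed to 13, 1033, 1286 and 1 UMIs in wild type, marrow replicates 1 and 2 and lymph node, and the 6 monocyte or macrophage markers to 10, 223, 72 and 79. The 7 T cell markers summed to 5, 51, 16 and 7 UMIs and the 8 B cell precursor markers to 32, 1, 1 and 1. The monocyte genes Lyz2, Ccr2 and Csf1r had 32, 24 and 11 UMIs in marrow replicate 1 and 10, 4 and 5 in replicate 2, and were at 0 in wild type and lymph node. The 79 monocyte or macrophage marker UMIs of the lymph node lay in Cd68 and Fcgr3, and the 10 of wild type in Cd68. The T cell gene Cd3e had 0, 10, 3 and 2 UMIs, and Adgre1 and Cd8a were at 0 in all selected cells. Their part in the results was not tested, beyond leaving out the 10 cells with more than 1% of UMIs from such markers.

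p53 is a transcription factor that is made continuously and kept low because Mdm2, a ubiquitin ligase, marks it for destruction, while Mdm4 binds it and blocks its activity. Damage, oncogene signalling or ribosome stress releases it, mostly by acting on the protein rather than on its RNA, and it then switches on genes that stop the cell cycle, promote death or limit metabolic stress. Mdm2 is itself such a target, which closes a feedback loop. The p53 pathway is of interest in myeloma because MYC and RAS activity can engage it and because its loss marks aggressive human disease. RNA levels such as those below do not measure p53 protein or its activity.

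p53 binds a pair of 10-base p53 decamers, and the windows around the start sites of 8 of the 10 genes could be searched for it (RefSeq sequences, GRCm38.p6, 250 bases upstream to 50 downstream, 11 windows). A full element was a pair of decamers at most 13 bases apart with at most 2 mismatches to the p53 consensus and its central C and G intact. The search covered both strands because the consensus reads alike on each. Such an element was found at 3 of the 8 genes, Cdkn1a, Ccng1 and Sesn1, against 4.09% of all 32851 windows. An exact decamer, which 8.36% of windows hold, was found at 5 of the 8 genes: these 3, and Mdm2 and Trp53, where it stood without a full element. Both are counts of genes, some of them with several windows, beside shares of windows. The windows of Mdm4, Phlda3 and Btg2 held neither, which says only that these letters are not in those windows. For each gene 1 match is printed 5′ to 3′ on the gene's strand with 10 bases on either side, the matched stretch in capitals. They are shown because these are the promoters of the genes whose levels follow. By this definition Cdkn1a, Ccng1 and Sesn1 each had 2 full elements in 1 window, and the pair with the least spacing is printed. Cdkn1a also had an exact decamer outside its printed element, 73 to 64 bases before the start site, which is not printed. A match is a description of letters, not a measured binding site.
Cdkn1a full element: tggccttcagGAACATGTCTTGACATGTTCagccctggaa
Ccng1 full element: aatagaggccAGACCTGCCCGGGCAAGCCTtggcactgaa
Sesn1 full element: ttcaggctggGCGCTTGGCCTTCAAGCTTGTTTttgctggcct
Mdm2 single decamer: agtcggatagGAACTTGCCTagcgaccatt
Trp53 single decamer: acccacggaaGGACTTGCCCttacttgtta

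The Cdkn1a stretch lies at chr17:29090918-29090957 on the plus strand, with its element 51 to 32 bases before the start site of that window and 1 mismatch. Another Cdkn1a window, chr17:29093519-29093818, held neither a decamer nor a full element. The same was true of another Sesn1 window, chr10:41810324-41810623. The Ccng1 stretch lies at chr11:40755452-40755491 on the minus strand, with 1 mismatch, and the Sesn1 stretch at chr10:41887243-41887285 on the plus strand, with 2 mismatches. The single decamers lie at chr10:117710925-117710954 (Mdm2, minus strand) and chr11:69580274-69580303 (Trp53, plus strand). In the GENCODE vM21 annotation of GRCm38, all 10 genes are protein-coding. Mdm4 and Cdkn1a each overlap a gene on the opposite strand and Sesn1 overlaps 9930024M15Rik on its own strand. None of these overlapping genes is in the tables, and whether counting used strand is not given in the sources used here, so counts of these 3 genes may include reads of their neighbours.

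VQ marrow myeloma cells held more Trp53 and Zmat3 RNA and less Mdm2, Mdm4, Trp53inp1 and Btg2 RNA than wild-type plasma cells. The change in Trp53inp1 was the largest of the 10 genes, about 25-fold, and the others were between 2- and 4-fold. Ccng1, Cdkn1a and Sesn1 did not pass the test, and Phlda3 was too sparse to be tested. In all, 6 of the 9 tested genes were called at a Benjamini-Hochberg adjusted p under 0.05 (2 higher and 4 lower), against 29.9% of all 8286 genes tested (17.1% higher and 12.8% lower). The test was edgeR's quasi-likelihood test on UMIs summed per library. Only the VQ marrow pair gives it a residual degree of freedom (1), and the unreplicated libraries are taken to vary as that pair does. The fit's prior degrees of freedom were infinite, so no gene kept a variance of its own and the p-values rest on variation shared across genes. The median log2 fold change of the 9 genes was -0.52, against 0.20 over all tested genes (0.08 when genes at 0 in a group are set to their lower bound). With DESeq2 in place of edgeR, 2 of these calls remained, Trp53inp1 and Btg2. In cells thinned to 1000 UMIs the 3 genes called were Trp53inp1, Zmat3 and Btg2, and with a preset coefficient of variation of 0.4 between libraries only Trp53inp1 was called.

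**Figure D1:**
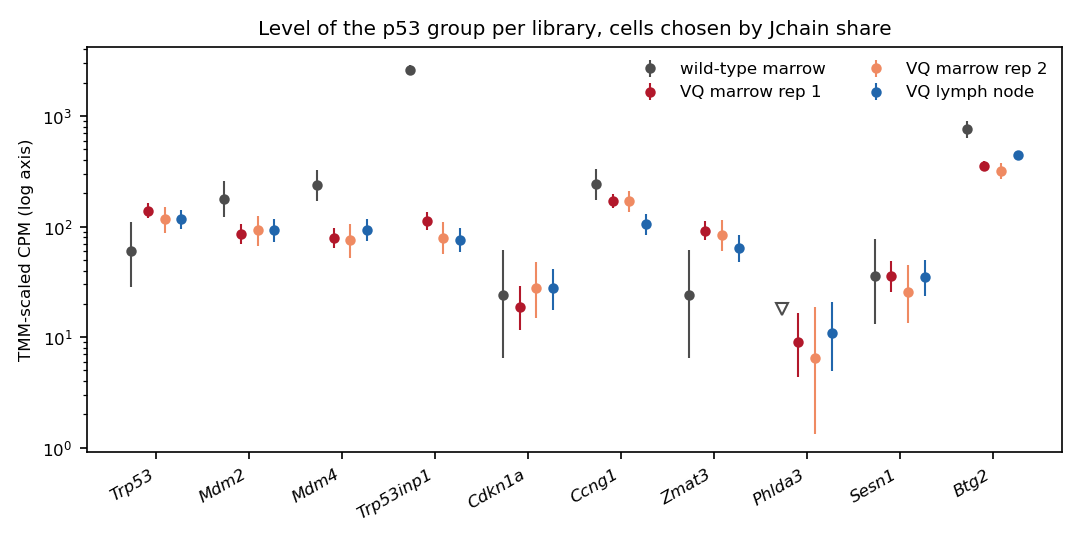
Level of each gene (TMM-scaled CPM, log axis) in the selected cells of the 4 libraries; bars are 95% counting intervals and the open triangle marks Phlda3 in wild type, with 0 UMIs, at the floor of 3 UMIs. Trp53inp1 lay at 2609 CPM in wild type and between 75.9 and 113 CPM in the VQ libraries, while Sesn1 and Cdkn1a overlapped across all 4.

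Trp53 itself was counted at 10, 155, 54 and 97 UMIs in wild type, marrow replicates 1 and 2 and lymph node, which correspond to 59.7, 140, 116 and 117 CPM. The wild-type library was the lowest and the VQ libraries lay close together. Relative to wild type, Trp53 was 2.22-fold higher in VQ marrow (95% counting interval 1.19 to 4.71), at 128 ± 16.6 CPM (SD, n = 2), a log2 difference of 1.13 (SE 0.42; edgeR adjusted p = 0.0264). This call rests on 10 wild-type UMIs. It was lost when the 10 cells with other cell types' markers were left out (log2 1.12, edgeR adjusted p = 0.0511), and when all sorted cells were used the sign turned (log2 -0.54, edgeR adjusted p = 0.109).

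Both inhibitors fell. Mdm2 was at 179 CPM in wild type (30 UMIs) against 86.5, 92.5 and 92.8 CPM in marrow replicates 1 and 2 and lymph node (96, 43 and 77 UMIs). All VQ libraries were below wild type and within a narrow range of one another. Mdm2 was 2.03-fold lower in VQ marrow (interval 1.32 to 3.03, log2 fold change -1.01, SE 0.32, edgeR adjusted p = 0.00854). With library totals in place of TMM it was not called (log2 -0.65, edgeR adjusted p = 0.0926). Mdm4, which lacks ligase activity of its own and restrains p53 by binding it, was at 239 CPM in wild type (40 UMIs) against 79.3, 75.3 and 94.0 CPM in the VQ libraries (88, 35 and 78 UMIs). It was 3.06-fold lower in VQ marrow (interval 2.08 to 4.40, log2 fold change -1.61, SE 0.30, edgeR adjusted p = 1.42e-06). DESeq2 gave a log2 fold change of -1.70 with an adjusted p of 0.0527.

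Trp53inp1 encodes a stress protein that p53 induces and that acts in autophagy and cell death. It was counted at 437 UMIs in wild type and at 125, 37 and 63 UMIs in marrow replicates 1 and 2 and lymph node, or 2609, 113, 79.6 and 75.9 CPM. The wild-type library stood far above every VQ library. Trp53inp1 was 25.3-fold lower in VQ marrow (interval 21.1 to 30.5), at 96.1 ± 23.4 CPM (SD, n = 2), a log2 difference of -4.70 (SE 0.18, edgeR adjusted p = 5.68e-144). It was called lower in each of the alternatives that gave a test, with log2 values from -4.81 to -3.45. The smallest of these, -3.45 (edgeR adjusted p = 1.48e-09), came from cells with fewer than 2 detected proliferation genes.

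Btg2, an antiproliferative gene that p53 and growth signals both induce, was at 758 CPM in wild type (127 UMIs) against 355, 316 and 440 CPM in marrow replicates 1 and 2 and lymph node (394, 147 and 365 UMIs). It was the most abundant of the 10 genes in the VQ libraries by CPM per 3′ tag and still 2.21-fold lower in VQ marrow than in wild type (interval 1.80 to 2.68, log2 fold change -1.16, SE 0.19, edgeR adjusted p = 4.01e-08). Among cells with fewer than 2 detected proliferation genes it was not called (log2 -0.21, edgeR adjusted p = 0.838). That setting counts genes in unthinned cells, so it also selects by depth. It kept 83 wild-type, 26 and 34 marrow and 30 lymph node cells, and left 1590 tested genes and 3 of the 10 genes described here.

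Zmat3, an RNA-binding protein gene that p53 activates, moved the other way from Trp53inp1 and Btg2. It was counted at 4, 102, 39 and 53 UMIs in wild type, marrow replicates 1 and 2 and lymph node, or 23.9, 91.9, 83.9 and 63.9 CPM. All VQ libraries were above wild type. Zmat3 was 3.75-fold higher in VQ marrow (interval 1.43 to 14.0, log2 fold change 1.89, SE 0.58, edgeR adjusted p = 0.00662), a change that rests on 4 wild-type UMIs and that DESeq2 did not call (log2 1.81, adjusted p = 0.284).

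The other 4 targets were not called. Ccng1, cyclin G1, which recruits a phosphatase to Mdm2, stood at 245, 171, 170 and 105 CPM in wild type, marrow replicates 1 and 2 and lymph node (41, 190, 79 and 87 UMIs). The marrow replicates were close together and below wild type, a log2 difference of -0.52 (SE 0.27, edgeR adjusted p = 0.144). Cdkn1a, the p21 inhibitor of cyclin-dependent kinases and the best known arrest target of p53, was counted at 4, 21, 13 and 23 UMIs, or 23.9, 18.9, 28.0 and 27.7 CPM. Its groups overlapped, and the VQ marrow over wild-type ratio of 0.905 had an interval of 0.323 to 3.51, so a change of 2- or 3-fold in either direction was not detectable at this depth. Sesn1, sestrin 1, a brake on mTORC1 signalling, stood at 35.8, 36.1, 25.8 and 34.9 CPM (6, 40, 12 and 29 UMIs), with a ratio of 0.922 and an interval of 0.396 to 2.63. Phlda3, a repressor of AKT, had 0, 10, 3 and 9 UMIs. Wild type was at 0, where the floor of 3 UMIs corresponds to 17.9 CPM, above the 9.01, 6.46 and 10.8 CPM of the VQ libraries, so no fold is given.

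**Figure D2:**
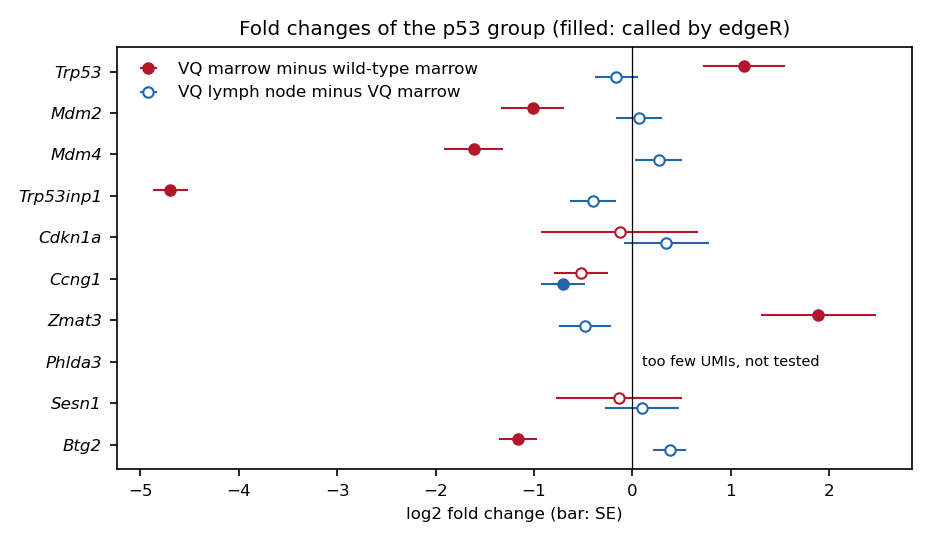
Log2 fold change of each tested gene for VQ marrow against wild-type marrow and for VQ lymph node against VQ marrow; bars are the SE of the edgeR fit and filled symbols passed an adjusted p of 0.05. In the first comparison Trp53inp1 lay at -4.70 and Zmat3 at 1.89, and in the second only Ccng1, at -0.70, was filled.

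VQ lymph node cells differed from VQ marrow cells in 1 of the 9 tested genes, Ccng1, against 3.13% of all genes tested (1.86% higher and 1.27% lower in the lymph node). Ccng1 stood at 105 CPM in the lymph node and at 171 and 170 CPM in the marrow replicates, 1.63-fold lower (interval 1.28 to 2.10, log2 fold change -0.70, SE 0.22, edgeR adjusted p = 0.0474). This call lies just under the threshold and was lost under most alternatives, DESeq2 and the removal of the filter on low counts among them, while the log2 value stayed between -0.74 and -0.60 in every alternative that gave one. The median log2 fold change of the 9 genes was 0.07, against -0.02 over all tested genes. Trp53inp1 differed by -0.40 between the sites (95% interval -0.86 to 0.06), Mdm2 by 0.07 (-0.40 to 0.53), Mdm4 by 0.27 (-0.20 to 0.74) and Trp53 by -0.16 (-0.59 to 0.26). The uncalled Btg2 differed by 0.38 (0.05 to 0.71, edgeR adjusted p = 0.273) and Zmat3 by -0.48 (-0.997 to 0.040, edgeR adjusted p = 0.475). Cdkn1a (0.34, -0.50 to 1.19) and Sesn1 (0.10, -0.64 to 0.84) had wider intervals. Neutrophil marker UMIs, high in the marrow libraries and at 1 in the lymph node, moved with the site.

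Lymph node myeloma and wild-type marrow plasma cells were 1 library each. Their ratios are given with counting intervals and were not tested, and they share the wild-type library with the values above. Trp53inp1 was 34.4-fold lower in the lymph node cells (counting interval 26.3 to 45.5), Mdm4 2.54-fold lower (1.69 to 3.77), Ccng1 2.33-fold lower (1.57 to 3.42), Mdm2 1.93-fold lower (1.22 to 2.98) and Btg2 1.72-fold lower (1.40 to 2.11). Trp53 was 1.96-fold higher (1.02 to 4.21). The interval of Zmat3 (ratio 2.67, 0.985 to 10.2) reached 1, as did those of Cdkn1a (1.16, 0.397 to 4.62) and Sesn1 (0.976, 0.398 to 2.87).

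The 10 genes were then read as shares of cells. Because VQ cells held more UMIs, each cell was thinned to 1000 UMIs, which kept 87 wild-type cells and left out the 19, 22, 32 and 14 shallower cells of wild type, marrow replicates 1 and 2 and lymph node. Trp53inp1 was detected in 78.2% of wild-type cells (95% exact interval 68.0 to 86.3) and in 8.33%, 8.70% and 8.19% of the cells of marrow replicates 1 and 2 and lymph node. Without thinning these shares were 85.8%, 32.7%, 18.2% and 22.2%. The part of free RNA in these shares was not tested. Btg2 was detected in 37.9% of thinned wild-type cells and in 26.5%, 25.4% and 31.6% of VQ cells. Without thinning the shares were 57.5%, 65.0%, 48.8% and 71.9%, in another order. Zmat3 was detected in 0 of 87 thinned wild-type cells and in 11.3%, 9.42% and 5.85% of VQ cells, against 3.77%, 24.8%, 18.2% and 17.3% without thinning. Trp53 was detected in 6.90%, 9.80%, 11.6% and 10.5% of thinned cells, a spread within the counting intervals, while the unthinned shares were 8.49%, 40.7%, 23.5% and 37.3%. Mdm2 was detected in 12.6%, 9.80%, 8.70% and 9.36% of thinned cells and Mdm4 in 11.5%, 10.3%, 6.52% and 9.36%, with intervals that overlap in all 4 libraries for both genes.

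**Figure D3:**
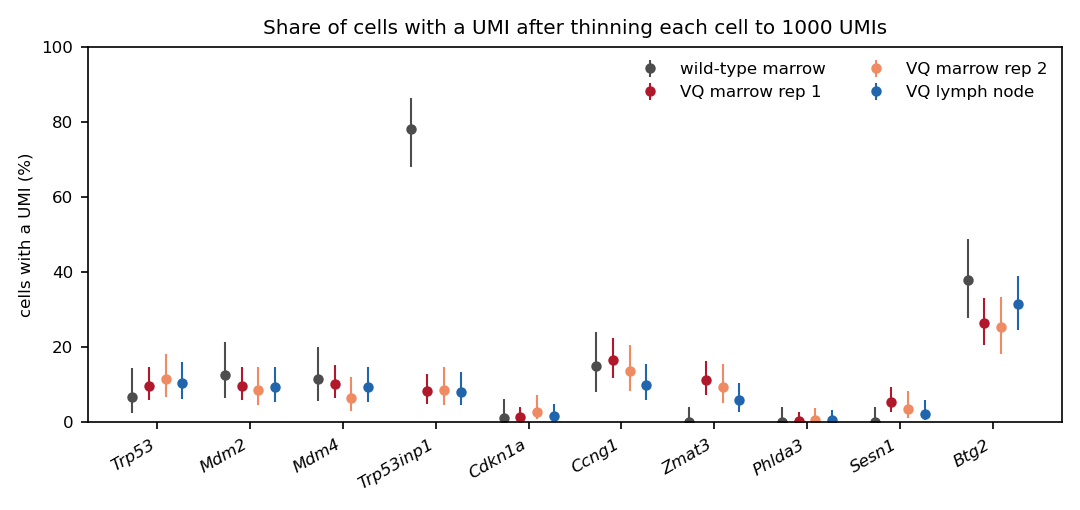
Share of selected cells with at least 1 UMI of each gene after thinning every cell to 1000 UMIs, by library; bars are 95% exact (Clopper-Pearson) intervals for counting error. The wild-type share of Trp53inp1, 78.2%, stands above the VQ shares of 8.19% to 8.70%, and the intervals of Trp53 and Mdm2 overlap in all 4 libraries.

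At this depth a median of 2 of the 10 genes was detected in a wild-type cell and 1 in a VQ cell of each library. The mean sum of UMIs of the 10 genes per thinned cell was 3.05 in wild type and 1.16, 1.08 and 1.09 in marrow replicates 1 and 2 and lymph node. Without Trp53inp1 the means were 1.07, 1.05, 0.978 and 0.988. Trp53inp1 alone thus held most of the difference in the summed level.

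The VQ marrow libraries also held cells with a Jchain share of at least 5%, 19 in replicate 1 and 18 in replicate 2, which were not among the selected myeloma cells. Comparing them with the selected cells of their own library was added after the data had been seen, and sets cells of 1 library side by side. They were shallower, with medians of 1064 and 699.5 UMIs against 4700 and 2646. Trp53inp1 stood at 1600 CPM (35 UMIs) and 2122 CPM (27 UMIs) in these Jchain-high cells of replicates 1 and 2, and at 120 and 83.3 CPM in the myeloma cells beside them (totals without TMM). The selected wild-type cells stood at 2142 CPM on that scale. With TMM scaling the values were 1909 against 142 CPM in replicate 1 and 1823 against 97.4 CPM in replicate 2. On that TMM scale the Jchain-high cells were 13.5-fold higher within replicate 1 (counting interval 8.97 to 19.7). Within replicate 2 they were 18.7-fold higher (11.0 to 31.6), a smaller fold than the totals without TMM give. In an edgeR fit with library as a block, Trp53inp1 was lower in the myeloma cells by a log2 value of -3.95 (SE 0.37, edgeR adjusted p = 4.41e-23). It was 1 of the 8 tested genes called, against 5.44% of the 4743 genes tested (3.63% higher and 1.81% lower in the myeloma cells). Whether these Jchain-high cells are the recipient's own plasma cells is not given by the labels.

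Myc stood at 183 and 0 CPM in those Jchain-high cells and at 1263 and 1454 CPM in the myeloma cells of the same libraries, again without TMM. Trp53 had 0 UMIs in the 37 Jchain-high cells and 209 UMIs in the myeloma cells, and it was not called (edgeR adjusted p = 0.152). The counting intervals of its TMM-scaled Jchain-high over myeloma ratio reached up to 1.16 in replicate 1 and 1.81 in replicate 2, so each replicate taken alone includes 1. With both replicates pooled, Trp53 stood at 166 CPM in the myeloma cells, 1.83-fold the floor of 3 UMIs (90.5 CPM) in the Jchain-high cells. Zmat3 likewise had 0 against 141 UMIs and was not called (edgeR adjusted p = 0.328), with upper limits of 1.77 and 2.54. Pooled, its myeloma level was 1.24-fold that floor. Btg2 stood at 366 and 393 CPM in Jchain-high cells and at 377 and 331 CPM in myeloma cells, and Mdm2 and Mdm4 together had 7 UMIs in the Jchain-high cells.

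**Figure D4:**
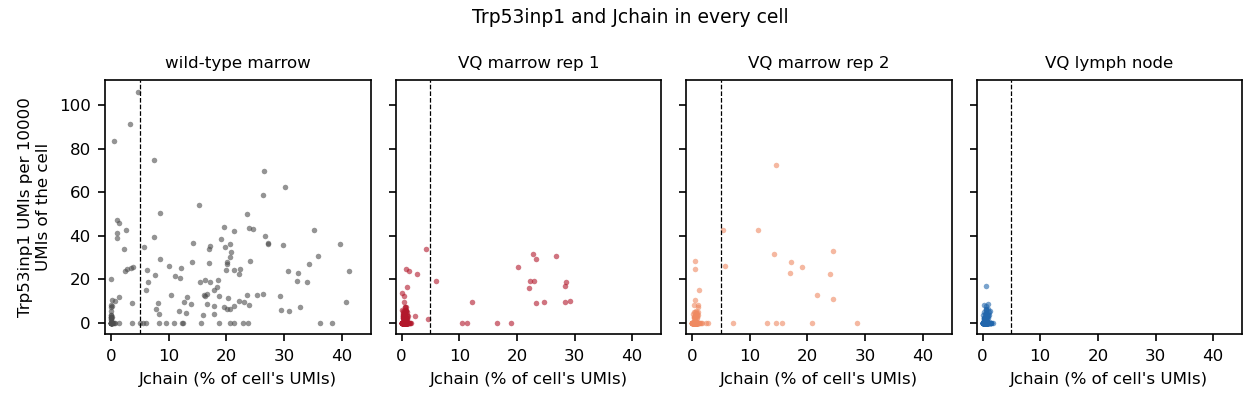
Trp53inp1 level against Jchain share of UMIs in the cells of each library. The values that follow are CPM of library totals, summed over the cells of a band of Jchain share. Wild-type bands from 1% upward lay between 1704 and 2791 CPM. Cells under 1% lay at 294 CPM in wild type and at 76.9 to 116 CPM in the VQ libraries. VQ marrow cells above 20% lay at 1968 and 1321 CPM.

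Across bands of Jchain share, Trp53inp1 showed a step rather than a steady rise in wild type. In wild type it stood at 294 CPM in the 42 cells under 1%, at 2791 CPM in the 6 cells from 1% to 2.5% and between 1704 and 2458 CPM in every higher band. The wild-type cells under 5% included 25 cells with at least 5 UMIs of B cell precursor markers, where Trp53inp1 stood at 299 CPM. In the other 32 it stood at 1195 CPM. The part of such cells in the step was not tested. In VQ marrow replicate 1 it stood at 116 CPM in the 208 cells under 1% and at 1968 CPM in the 13 cells above 20%, with 218 CPM (1 UMI) in the 5 cells from 10% to 20%. In replicate 2 it stood at 76.9 CPM in the 156 cells under 1%, at 177 CPM in the next 13 cells, and at 2306, 2662 and 1321 CPM in the bands from 5%, 10% and 20%, which hold 3, 9 and 6 cells. The lymph node had no cell above 2.5%, and its 2 bands stood at 77.5 and 93.3 CPM.

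Proliferation genes were counted in cells thinned to 1000 UMIs. Of the 87 wild-type cells of that depth, 53 had none of the 42 genes, 34 had 1 or 2 and none had 3 or more, while 146, 97 and 103 cells of marrow replicates 1 and 2 and lymph node had 3 or more. The 19 shallower wild-type cells were not classed, and Mki67 had 8 UMIs in the selected wild-type cells. In VQ marrow against wild type, 37 of these 42 genes were called higher, against 17.1% of all genes tested. All 42 values were above 0 (median log2 fold change 4.19, or 2.40 with the 16 genes at 0 in wild type set to their bound). Within the VQ libraries the 10 genes were therefore compared between cells with fewer than 3 and cells with 3 or more proliferation genes, classed after thinning and with levels from all their UMIs. Btg2 was 610 against 304 CPM in marrow replicate 1, a ratio of 2.01 (counting interval 1.62 to 2.48), and 534 against 273 CPM in replicate 2, a ratio of 1.95 (1.36 to 2.77). In the lymph node it was 484 against 432 CPM, and the interval of the ratio of 1.12 included 1 (0.899 to 1.39). For the other 9 genes the intervals included 1 in all 3 VQ libraries. These ratios cover counting error within single libraries and were not tested across libraries.

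Other genes of the p53 pathway came from 5 lists of regulators and targets. Of 70 tested genes outside the 10, 16 were higher and 11 lower in VQ marrow than in wild type, against 17.1% and 12.8% of all genes tested, with a median log2 fold change of 0.46 (0.22 with the 8 genes at 0 in a group at their bound). These counts and those of the single lists are given beside that background and single out no list. Among 18 upstream regulators, 6 rose and 3 fell. The nucleolar proteins nucleolin (Ncl), at 203 CPM in wild type and 1004 and 930 CPM in the marrow replicates, and nucleophosmin (Npm1), at 406, 1957 and 1664 CPM, rose. So did the checkpoint kinase Chek1, which rests on 1 wild-type UMI, and Trim28, an Mdm2 partner. The p53-binding repair factor Trp53bp1, the ubiquitin ligase Rchy1 and the deubiquitinase Usp7, which acts on both p53 and Mdm2, fell, with log2 fold changes of -2.52, -1.23 and -0.84. Trp53bp1 had only 7 UMIs in wild type and 6 and 5 in marrow replicates 1 and 2.

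Of 13 arrest targets, 3 were higher and 2 lower, near the background of 17.1% and 12.8%. Sfn, the 14-3-3 sigma protein that holds cells in G2, went from 17.9 CPM in wild type to 254, 209 and 242 CPM in marrow replicates 1 and 2 and lymph node (log2 fold change 3.70, edgeR adjusted p = 1.96e-11). Psrc1, a spindle protein, was not counted in wild type (0 UMIs), and its level in VQ marrow was at least 5.21-fold higher. Zfp365 was at least 2.41-fold higher on the same ground. Cyclin G2 (Ccng2) fell by 1.80 on the log2 scale and Btg2 was the other gene that fell.

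Of 16 death targets, 3 were higher and 3 lower, also near that background. The BH3-only gene Pmaip1 (Noxa) went from 53.7 CPM in wild type to 136 and 159 CPM in the marrow replicates, and Siva1 at 5.97 CPM (1 UMI), 51.4 and 49.5 CPM, with Zmat3 as the other gene that rose. The death receptor Fas fell from 59.7 CPM in wild type (10 UMIs) to 3.61 and 4.30 CPM (4 and 2 UMIs). Casp1, the inflammatory caspase, fell from 107 to 37.0 and 28.0 CPM, alongside Trp53inp1. Of the 14 repair and metabolism targets 4 rose, and both genes with a value below 0 were not called. Those that rose were Sco2, a cytochrome c oxidase assembly factor (1 UMI in wild type), the replication clamp Pcna (6 UMIs in wild type), Gpx1 and Rps27l. Of the 16 other targets, 1 rose (Notch1, 0 UMIs in wild type, at least 1.53-fold higher) and 6 fell, among them Trim21, Trp53i11, Dusp1 and Tnfaip8 (log2 fold changes of -2.94, -1.76, -1.56 and -1.55). Trim21 had only 6 UMIs in wild type and 4 and 3 in marrow replicates 1 and 2. Dusp1 is also an immediate early gene. Of 20 tested immediate early and heat shock genes, 11 were lower and 5 higher, against 12.8% and 17.1% of all genes tested. The largest changes were those of Hspa1a (log2 -6.53) and Hspa1b (log2 -5.95).

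**Figure D5:**
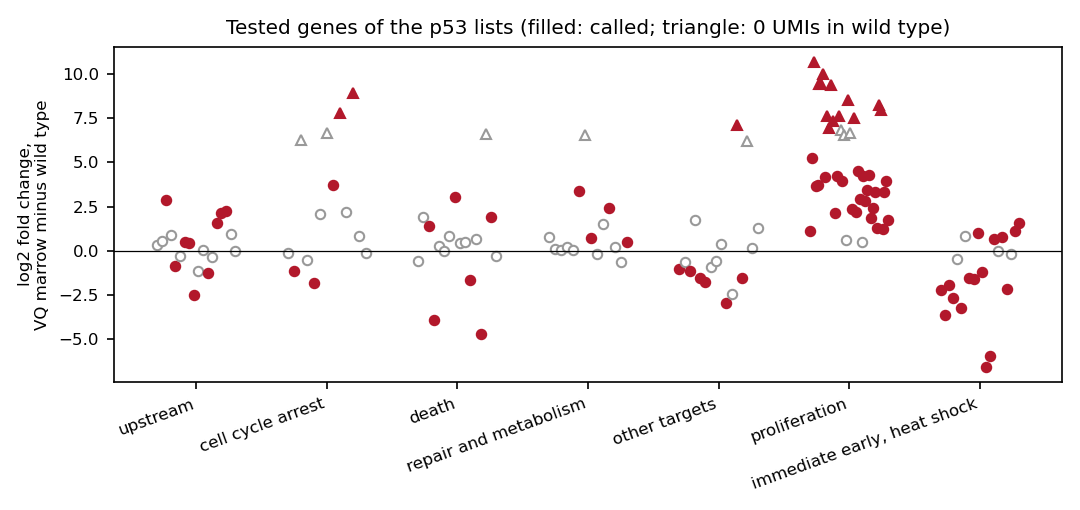
Log2 fold change, VQ marrow against wild-type marrow, of tested genes by list, the 5 pathway lists among them. Filled points passed an adjusted p of 0.05. Genes with 0 UMIs in a group have a fitted value that depends on the prior count and is no bound. Values fall on both sides of 0 in each of the 5 pathway lists, with medians from -0.76 (other targets) to 2.08 (arrest, 0.09 with genes at 0 at their bound).

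Between lymph node and marrow myeloma cells, 2 of the 70 other pathway genes were higher and 3 lower, against 1.86% and 1.27% of all genes tested. Tap1, a peptide transporter, stood at 163 CPM in the lymph node and at 83.8 and 60.3 CPM in the marrow replicates (log2 fold change 1.10, edgeR adjusted p = 4.33e-05), and Pml, the nuclear body scaffold, at 196 against 101 and 118 CPM (log2 fold change 0.87, edgeR adjusted p = 0.00198). Both are also interferon-induced genes. Pmaip1, Psrc1 and Dusp1 were lower in the lymph node, with log2 fold changes of -0.84, -0.90 and -1.61.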

How the data were processed

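Single-cell 3′ RNA was measured in 4 libraries. The deposited values are raw UMI counts per gene and cell, made by the authors with no scaling. For the genome build, the submitters' processing notes name mm10. The aligner, the annotation and any doublet removal are not given in the sources used here, and no doublet caller was run on these small libraries. The 10 genes, the gene lists and the tests were chosen with earlier results of these data known.

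Cells were chosen by their Jchain share (5%), and their counts were summed per library (204002 to 1045005 UMIs). With so few UMIs, counting error dominates the rarer genes. Sums were tested in R 4.3.3 with edgeR 4.0.16: TMM scaling (factors 0.834, 1.08, 1.06 and 1.05 in wild type, marrow replicates 1 and 2 and lymph node), the filterByExpr filter (8286 genes left), 3 group means over 4 libraries and the quasi-likelihood test with Benjamini-Hochberg adjustment over all genes tested. The common biological coefficient of variation was 0.0928. SEs were computed back from the F statistic (absolute log2 fold change over root F). Over 9021 genes the marrow replicates had a chi-square of 1.57 per degree of freedom, above sampling noise, so they were not 1 library deposited in duplicate. Tested on simulated counts of the same depths, the fit called 30 of 100 genes changed 2-fold and 74 of 100 changed 4-fold between VQ and wild-type marrow, with 1 false call of 105. Between lymph node and VQ marrow it called 52 and 90 of 100, with 5 false calls of 147. The simulation gave every library the variation fitted here and changed only genes above a minimum expected count. It therefore cannot show how many calls are false if an unreplicated library varies more than the marrow pair.

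Named genes were all 10 described genes, up to 4 called genes with the largest change per direction from each pathway list, the 2 largest of the proliferation and of the immediate early and heat shock lists, and the 5 genes most like Trp53inp1. Intervals are 95% exact Poisson or Clopper-Pearson intervals and, like the floor of 3 UMIs for a count of 0, cover counting error only. Alternatives were DESeq2 1.42.0, library totals, no filter, a preset coefficient of variation of 0.4, other Jchain thresholds (2.5% and 10%), all cells, cells of at least 1000 UMIs, cells with fewer than 2 proliferation genes, thinned cells, no Jchain, each marrow replicate left out and, added after the data were seen, cells with at most 1% of UMIs from other types' markers. Sequences came from RefSeq tables (GRCm38.p6) and gene positions from GENCODE vM21. Trp53inp1 and Zmat3 have no promoter sequence here.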

Additional observations from a re-analysis of the deposited data

Results flagged for a closer look

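Cells outside the Jchain rule carried more of 3 of the genes than the selected wild-type plasma cells, on the scale of library totals. In the 57 wild-type cells with a Jchain share under 5%, Trp53 was at 360 CPM (49 UMIs) against 49.0 CPM in the selected cells, a ratio of 7.34 (95% counting interval 3.67 to 16.2). Cdkn1a was at 198 CPM (27 UMIs) against 19.6 CPM, a ratio of 10.1 (3.52 to 39.7), and Sesn1, with 13 UMIs, had a ratio of 3.24 (1.15 to 10.4). Of the 27 Cdkn1a UMIs, 26 lay in the 25 cells with at least 5 UMIs of B cell precursor markers, where Cdkn1a stood at 278 CPM and Trp53 at 395 CPM. In the other 32 cells Cdkn1a stood at 23.4 CPM and Trp53 at 281 CPM. In the 19 Jchain-high cells of VQ marrow replicate 1, Cdkn1a had a ratio of 6.99 (1.02 to 41.3) that rests on 3 UMIs.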

How the results depend on the processing

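Genes called between VQ and wild-type marrow fell from 2478 to 499 with DESeq2, 513 with a preset coefficient of variation of 0.4, 181 in cells with fewer than 2 proliferation genes and 914 in thinned cells. The described genes called there fell from 6 to 2, 1, 1 and 3 in the same order. Between lymph node and marrow, 259 calls became 23 with DESeq2, 30 with the preset variation, 158 at a Jchain threshold of 2.5%, 107 in all cells, 74 in cells with fewer than 2 proliferation genes and 53 in thinned cells. The single described gene called there, Ccng1, gave 0 calls under each of these (it was not tested in cells with fewer than 2 proliferation genes), with no filter, at a Jchain threshold of 10%, in cells of at least 1000 UMIs and without cells carrying other types' markers. It was kept with library totals and without Jchain. Library totals moved the median log2 fold change of all genes between VQ and wild-type marrow by 0.36 and the share of calls that were higher from 57.3% to 75.0%. DESeq2 gave 48.3%, the preset variation 46.0% and cells with few proliferation genes 45.9%. With all sorted cells Trp53 turned to -0.54, and Cdkn1a was called lower (log2 -2.07, edgeR adjusted p = 0.00178). Uncalled genes near 0 changed sign between VQ and wild-type marrow: Cdkn1a to 0.23 with library totals and 0.66 at the 10% threshold, Sesn1 to 0.23 with library totals and 0.0038 in cells of at least 1000 UMIs. Between lymph node and marrow Btg2 turned to -0.41 in cells with fewer than 2 proliferation genes, and Trp53 to 0.015 and Mdm2 to -0.020 in thinned cells. Leaving out 1 marrow replicate at a time, VQ marrow minus wild type ranged from -0.33 (without replicate 2) to 0.19 (without replicate 1) for Cdkn1a and from -0.50 (without 1) to 0.016 (without 2) for Sesn1. Lymph node minus marrow ranged from -0.26 (without 2) to 0.0098 (without 1) for Trp53, from -0.012 (without 1) to 0.55 (without 2) for Cdkn1a and from -0.045 (without 2) to 0.43 (without 1) for Sesn1. Those fits have no residual degrees of freedom and no test. Without replicate 1 Trp53inp1 was at -5.07 and without replicate 2 at -4.52. The cause of these changes was not tested. No paired analysis was possible because VQ bone marrow alone has replicate numbers, so no groups share them. Depth limits the genes with few wild-type UMIs, which were Phlda3 (0), Cdkn1a and Zmat3 (4 each), Sesn1 (6) and Trp53 (10).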

Other observations

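The 5 genes whose pattern over the 4 libraries was most like that of Trp53inp1, of 8286 genes tested, were Zc3h12d, Cyp4v3, Pdcd1lg2, P2ry10 and Gas7, at Euclidean distances of 0.125, 0.140, 0.189, 0.320 and 0.338 in centred log2 CPM. They are far less abundant: Zc3h12d had 17 UMIs in wild type and 2, 0 and 0 in VQ marrow replicates 1 and 2 and lymph node, and P2ry10 had 20, 4, 1 and 1. Likeness over 4 libraries reflects mainly the step between wild type and VQ.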
